A study of Mus musculus with 8 samples.

Results

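The F-box genes of the mouse egg were examined in MII oocytes, the mature eggs that rest in the second meiotic metaphase. Members were all protein-coding genes whose GENCODE M21 symbol begins with Fbxl, Fbxo or Fbxw followed by a number, apart from Fbxo5 and Fbxo43, and they came to 73 of the 24860 genes listed. Of these, 14 form a tandem cluster of oocyte Fbxw genes on chromosome 9, and 59 lie elsewhere (18 Fbxl, 32 Fbxo and 9 Fbxw genes). The eggs came from C57BL/6 females at postnatal day 42, either wild type (WT, 4 libraries) or carrying the Esrp1-/- genotype (Esrp1-KO, 4 libraries). A library came from 15 oocytes lysed together, by Smart-seq2, which copies polyadenylated RNA into full-length cDNA and does not record the strand. No label gives the kind of allele or says whether it acts in the egg alone, or how many animals gave the 15 oocytes, and p-values measure the spread between these libraries.

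F-box proteins are the interchangeable substrate receptors of SCF ubiquitin ligases, in which SKP1 links the F-box to the scaffold CUL1 and the RING protein RBX1. The letter after Fbx names the part that binds substrates: leucine-rich repeats in Fbxl, WD40 repeats in Fbxw and other or no recognised domains in Fbxo. Attachment of NEDD8 to the cullin switches the ligase on, and the COP9 signalosome removes it. In eggs, which divide and then pass to the embryo with little or no transcription, turnover of stored proteins by ubiquitin ligases is part of the control of meiosis. The chromosome 9 Fbxw genes are a rodent expansion known from oocytes, and most of their substrates are not known.

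Esrp1, which encodes a splicing regulator, had 17.1, 17.2, 19.5 and 16.2 FPKM (fragments per kilobase of transcript, scaled to the library total) in the WT libraries and 3.62, 3.43, 2.31 and 3.83 FPKM in the Esrp1-KO libraries. The groups did not overlap, and the fall was 2.12 on the log2 scale (SE 0.15, limma with Benjamini-Hochberg adjustment over all genes tested, adjusted p = 1.32e-05). The library totals implied by the values were 24910433 to 32337961 reads. Over all 8021 genes tested, 36.9% passed an adjusted p of 0.05, with 1111 higher and 1850 lower, and after TMM scaling of the same values these were 1392 and 1601. The 10 oocyte markers (such as Gdf9 and Zp3) summed to 7840 to 8830 FPKM in WT and 9230 to 11000 FPKM in Esrp1-KO, with 4 higher and 1 lower, and their part in the results below was not tested. The 10 of 12 granulosa and cumulus markers listed in the files summed to 6.77 to 8.53 and 2.61 to 3.59 FPKM. Stromal and endothelial markers (3 of 5 listed) summed to 4.4 to 5.94 and 6.58 to 9.08 FPKM, and blood and immune markers to 0.367 to 1.49 and 0.619 to 9.02 FPKM. Markers of the 2-cell and later embryo summed to 56.1 to 82.7 and 68.9 to 78.9 FPKM. FPKM are relative to the library total, and a difference in all 15 oocytes of a library and a larger one in some of them cannot be told apart.

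The 14 cluster genes lay between positions 109139447 and 109790670 of chromosome 9 (GRCm38), a span of 0.65 Mb, and all 14 were on the minus strand. Their coding sequences were alike, with identities of 80.1% to 99.1% over 91 pairs and a median of 84.3%. Fbxw14 and Fbxw28 were the closest pair, at 99.1%. The first 60 coding bases of 4 members show the degree of likeness and where reads of Fbxw14 and Fbxw28 cannot be told apart. Capitals mark bases that differ from Fbxw14, of which Fbxw28 had 0, Fbxw22 had 5 and Fbxw24 had 7.
Fbxw14: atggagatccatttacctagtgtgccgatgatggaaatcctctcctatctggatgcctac
Fbxw28: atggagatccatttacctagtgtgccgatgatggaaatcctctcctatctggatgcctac
Fbxw22: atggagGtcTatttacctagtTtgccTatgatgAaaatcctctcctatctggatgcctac
Fbxw24: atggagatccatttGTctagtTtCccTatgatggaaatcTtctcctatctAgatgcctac

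Of all 50-base stretches in the transcripts, 58.9% for Fbxw14 and 61.5% for Fbxw28 also occurred in transcripts of other genes. The share was 21.5% for Fbxw16 and 5.8% to 16.0% for the other 11. How the authors assigned reads that fit several genes is not given in the sources used here. The separate values of Fbxw14 and Fbxw28 are therefore uncertain, and their sum is given beside them.

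The start regions of the cluster were alike as well. RefSeq start sites (GRCm38.p6) were available for 11 of the 14 genes, and the 250 bases before the start were 84.3% to 97.3% identical over 55 pairs, with a median of 91.0%. Fbxw14 was the cluster gene with the highest mean level in Esrp1-KO eggs. Its region is chr9:109287677-109287926 on the minus strand and reads, with every CANNTG (the E-box form bound by basic helix-loop-helix factors) in capitals:
Fbxw14: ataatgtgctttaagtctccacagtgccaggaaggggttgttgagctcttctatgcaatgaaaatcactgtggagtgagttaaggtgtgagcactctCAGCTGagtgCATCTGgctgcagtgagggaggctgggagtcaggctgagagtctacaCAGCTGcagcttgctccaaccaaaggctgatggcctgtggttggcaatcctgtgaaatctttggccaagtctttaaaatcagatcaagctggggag

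CANNTG was found on either strand in all 12 cluster start regions (the 250 bases before each start). It was in 71.4% of the 63 such regions of other F-box genes and in 66.2% of all 32851 regions. Its form CAGCTG, singled out after the sequences were seen, was in 12 of 12 cluster regions and in 13.0% of all regions. TAATTA and TAATTG, the homeobox forms searched on both strands, occurred in 0 of 12 cluster regions and in 4.84% and 7.17% of all. TATAAA occurred in 0 of 12 cluster regions, in 0 of 63 regions of the other F-box genes and in 12.4% of all. The regions descend from shared copies and are not independent, so these counts describe the sequences alone. A stretch of 60 bases around the proximal CAGCTG, shown for genes that differed in level and in response, reads as follows on the minus strand at chr9:109339708-109339767, chr9:109495932-109495991, chr9:109702734-109702793, chr9:109626113-109626172 and chr9:109746141-109746200.
Fbxw28: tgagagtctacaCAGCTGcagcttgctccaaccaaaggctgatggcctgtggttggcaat
Fbxw19: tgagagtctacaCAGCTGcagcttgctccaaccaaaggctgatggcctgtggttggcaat
Fbxw18: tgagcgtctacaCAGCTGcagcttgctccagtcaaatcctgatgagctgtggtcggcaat
Fbxw24: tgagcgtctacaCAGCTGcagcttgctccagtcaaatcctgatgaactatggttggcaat
Fbxw26: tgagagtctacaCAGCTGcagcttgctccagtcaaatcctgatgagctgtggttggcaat

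Over these 60 bases Fbxw14, Fbxw28 and Fbxw19 were identical, while Fbxw18 and Fbxw24 each differed from Fbxw14 at 8 positions and Fbxw26 at 6.

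Transcripts of the cluster were among the most abundant of the egg. Fbxw24 ranked 28 of all genes by mean FPKM in WT eggs, Fbxw14 ranked 31 and Fbxw28 ranked 39, and 6 cluster genes stood among the top 100 in each genotype. The 14 genes made up 93.3% ± 1.8 of all F-box FPKM in WT and 95.1% ± 1.5 in Esrp1-KO libraries (SD, n = 4 each). Levels within the cluster spanned a wide range, from 1824 ± 389 FPKM for Fbxw24 to 23.9 ± 6.3 FPKM for Fbxw13 in WT (SD, n = 4).

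**Figure D1:**
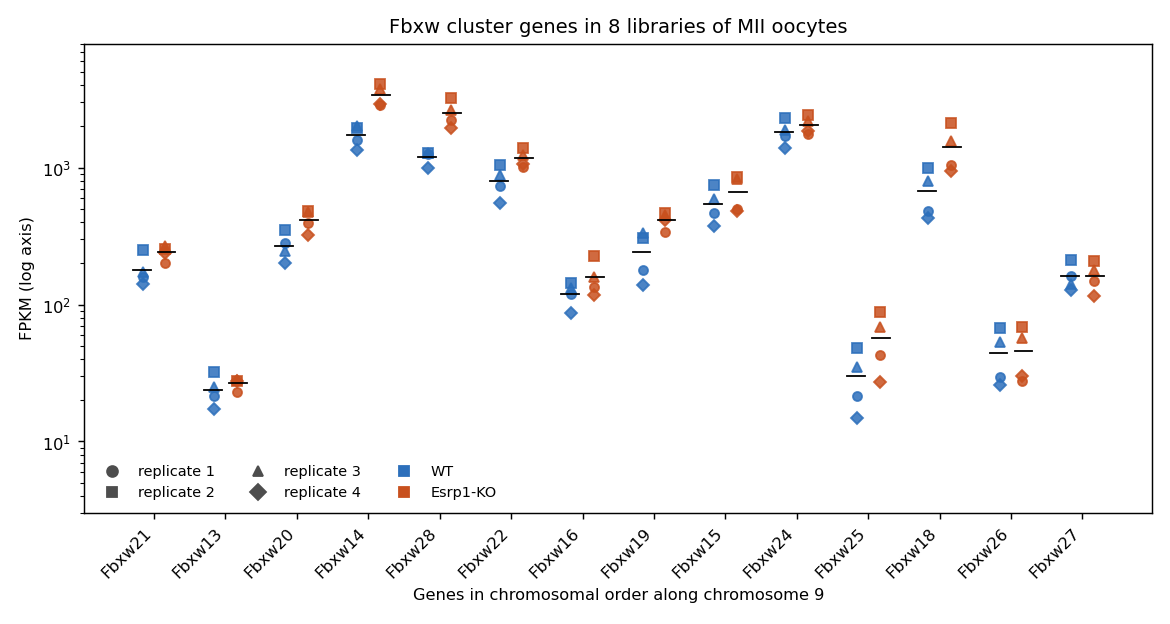
FPKM of the 14 Fbxw cluster genes (log axis) in chromosomal order, with a point for each of 4 WT (blue) and 4 Esrp1-KO (orange) libraries, symbols for the replicate number and black lines for group means. The Esrp1-KO points of Fbxw14, Fbxw28 and Fbxw19 all lie above the WT points, while those of Fbxw24, Fbxw26 and Fbxw27 overlap them.

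Summed over the cluster, the WT libraries had 7221, 9723, 8584 and 5832 FPKM (replicates 1 to 4) and the Esrp1-KO libraries 10737, 15941, 13909 and 10496 FPKM. The lowest Esrp1-KO library stood above the highest WT library. The ratio of the means was 1.63, and same-numbered libraries gave 1.49, 1.64, 1.62 and 1.80. As a share of all FPKM the cluster went from 2.41% ± 0.46 to 3.90% ± 0.68 (SD, n = 4 each). The sum carries no test, since Fbxw14 and Fbxw28 made up much of it. These 2 genes together had 2854, 3209, 3301 and 2337 FPKM in WT and 5105, 7322, 6397 and 4868 FPKM in Esrp1-KO, a ratio of 2.02. The other 12 genes gave a ratio of 1.39.

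Gene by gene, 6 of the 14 cluster members were higher in Esrp1-KO eggs, 0 were lower and 8 did not pass. Over all genes tested, 13.9% passed as higher. The median log2 fold change of the cluster was 0.51, against -0.06 for all genes tested. All 14 fitted changes were above 0, although that of Fbxw27 (0.01) was -0.041 after quantile normalization and -0.051 with a common total over nuclear genes. The groups did not overlap for 3 members (Fbxw14, Fbxw28 and Fbxw19), against 13.5% of all genes whose Esrp1-KO libraries were all above WT. With the replicate number as a block, 9 members passed as higher, against 17.2% of all genes. Leaving out a replicate number in both groups under the block gave 7 to 8, with no share of all genes computed. Among the 11 members with under 20% of their stretches shared, 4 passed as higher and the median was 0.44.

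Fbxw14 had 1597, 1936, 2022 and 1344 FPKM in WT and 2866, 4098, 3743 and 2919 FPKM in Esrp1-KO libraries. Every Esrp1-KO library was above every WT library, and Fbxw14 rose by 0.98 on the log2 scale (SE 0.17, adjusted p = 0.00167). Fbxw28 had 1257, 1273, 1279 and 993 FPKM in WT and 2240, 3224, 2655 and 1948 FPKM in Esrp1-KO. Its groups did not overlap either, and it rose by 1.05 on the log2 scale (SE 0.17, adjusted p = 0.00105). Both genes passed in all 26 alternative analyses run.

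Fbxw18 had 481, 995, 803 and 430 FPKM in WT and 1054, 2130, 1573 and 944 FPKM in Esrp1-KO libraries. WT replicate 2 overlapped the lowest Esrp1-KO library, although each same-numbered pair showed a similar ratio. The log2 fold change of Fbxw18 was 1.08 (SE 0.32, adjusted p = 0.0252), and with the block its SE was 0.09. Fbxw19 had 178, 308, 336 and 139 FPKM in WT and 337, 464, 450 and 411 FPKM in Esrp1-KO, with the closest values 336 and 337. It rose by 0.87 on the log2 scale (SE 0.27, adjusted p = 0.0295). Fbxw20 went from 269 ± 63 to 418 ± 74 FPKM (SD, n = 4 each) with 1 WT library inside the Esrp1-KO range, and its log2 fold change was 0.65 (adjusted p = 0.0247). Fbxw22 went from 802 ± 207 to 1175 ± 175 FPKM (SD, n = 4 each), also with WT replicate 2 inside the Esrp1-KO range, and its log2 fold change was 0.58 (adjusted p = 0.0416). Not all of these 4 calls held when single libraries were left out: without WT replicate 4, Esrp1-KO replicate 2 or Esrp1-KO replicate 3 the cluster had 2 genes past the threshold, and without WT replicate 1 it had 3. Over the runs without 1 library the log2 fold change was 0.86 to 1.30 for Fbxw18, 0.64 to 1.06 for Fbxw19, 0.52 to 0.78 for Fbxw20 and 0.41 to 0.71 for Fbxw22. With the block, all 4 passed without any 1 replicate number in both groups (limma, adjusted p 0.00141 to 0.0422).

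The most abundant WT member behaved differently in level. Fbxw24 had 1714, 2323, 1872 and 1386 FPKM in WT and 1758, 2421, 2208 and 1851 FPKM in Esrp1-KO libraries, and the groups overlapped widely. Its log2 fold change was 0.19 (SE 0.17, adjusted p = 0.421). The ratio of Fbxw14 to Fbxw24 within a library, chosen after the values were seen and given with no test, was 0.932, 0.833, 1.08 and 0.970 in WT and 1.63, 1.69, 1.69 and 1.58 in Esrp1-KO. Fbxw24 was the highest cluster gene in 3 of the 4 WT libraries, and Fbxw14 in all 4 Esrp1-KO libraries.

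Fbxw25 was low, with 21.5, 48.4, 34.8 and 14.9 FPKM in WT and 42.6, 87.8, 69.1 and 27.4 FPKM in Esrp1-KO libraries. The groups overlapped, and without the block its log2 fold change of 0.90 (SE 0.41) did not pass (adjusted p = 0.116). Each same-numbered pair differed by about the same ratio, and with the block the adjusted p of Fbxw25 was 0.000646 (range over alternatives 0.000536 to 0.274). Fbxw21 (180 ± 47 and 240 ± 29 FPKM, adjusted p = 0.0829) passed with the block at an adjusted p of 0.0376, within 0.0109 to 0.298 over alternatives. Fbxw16 (120 ± 25 and 159 ± 48 FPKM, adjusted p = 0.209) passed with the block at 0.0335, within 0.0116 to 0.455. Of the exon bases of Fbxw16, 11.7% overlapped the opposite-strand gene Gm42494, whose reads cannot be separated without strand.

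Fbxw15 had 544 ± 161 FPKM in WT and 664 ± 200 in Esrp1-KO (SD, n = 4 each, adjusted p = 0.423), with 11.2% of its exon bases overlapping Gm42756. Fbxw27 had 161 ± 37 and 163 ± 39 FPKM, Fbxw26 had 43.9 ± 19.9 and 45.7 ± 19.8 FPKM, and Fbxw13 had 23.9 ± 6.3 and 26.6 ± 2.5 FPKM (SD, n = 4 each). None of these passed in the fit with genotype alone or with the block added to it. Fbxw15 passed with TMM scaling and the block together (limma, adjusted p = 0.0328, within 0.0328 to 0.76 over alternatives). The pseudogene Fbxw23, which lies inside the locus and is not a member, had 117 ± 31 and 111 ± 10 FPKM (adjusted p = 0.837).

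**Figure D2:**
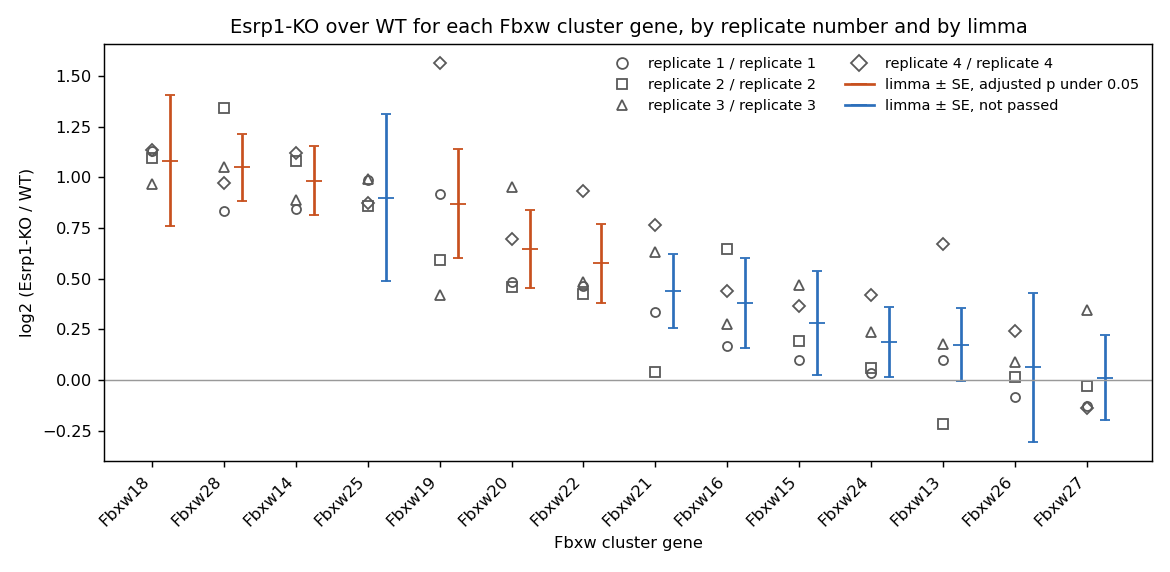
Log2 ratio of Esrp1-KO to WT for each cluster gene, with grey symbols for the 4 same-numbered library pairs and bars for the limma estimate on log2(FPKM + 1) ± SE (orange where the adjusted p was under 0.05). For Fbxw18 and Fbxw25 the symbols lie close together while the SE without a block is wide, and for Fbxw26 and Fbxw27 the symbols fall on both sides of 0.

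The make-up of the cluster, given with no test, also differed between genotypes. Fbxw24 went from 23.3% ± 1.0 of the cluster's FPKM in WT to 16.3% ± 1.0 in Esrp1-KO, with WT libraries at 21.8% to 23.9% and Esrp1-KO libraries at 15.2% to 17.6%. Fbxw14 went from 22.2% ± 1.6 to 26.8% ± 0.9, and Fbxw28 from 15.6% ± 2.0 to 19.7% ± 1.0, each with no overlap between groups. The shares of Fbxw15, Fbxw27, Fbxw16 and Fbxw13 were lower in every Esrp1-KO library than in every WT library. In all, 2 shares were above without overlap, 5 below and 7 overlapped. The shares of a library sum to a fixed total, so a larger share of Fbxw14 and Fbxw28 lowers the rest.

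**Figure D3:**
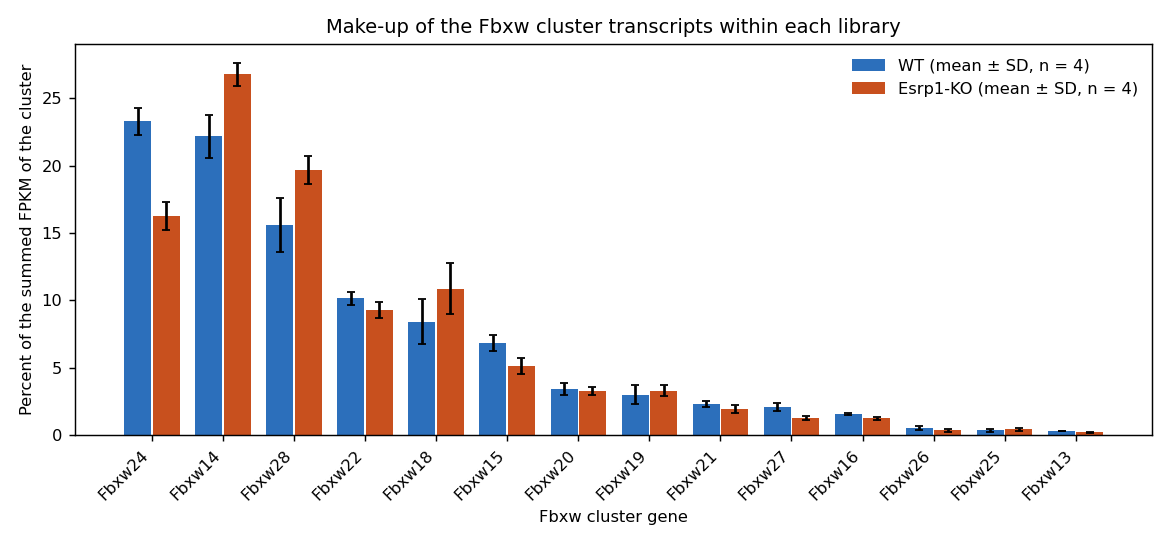
Percent of the cluster's summed FPKM held by each gene in WT (blue) and Esrp1-KO (orange), as bars of the mean ± SD over 4 libraries. Fbxw24 had the largest share in WT (23.3%), and Fbxw14 had it in Esrp1-KO (26.8%).

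Levels of the cluster varied with the replicate number in the same way in both genotypes. Replicates 2 and 3 were both above replicates 1 and 4 for 12 of 14 cluster genes in WT, against 17.2% of all genes tested. In Esrp1-KO this held for 13 of 14, against 27.3% of all genes. In both genotypes at once it held for 11 cluster genes, against 10.3% of all genes tested. The mean of replicates 2 and 3 over that of replicates 1 and 4 had a median of 1.44 over the cluster genes in WT and 1.38 in Esrp1-KO, and reached 2.28 and 2.24 for Fbxw25. For the other 31 F-box genes tested, the order held for 1 gene in WT and 3 in Esrp1-KO. The reverse order, with replicates 2 and 3 both below replicates 1 and 4, held for 15 of these 31 in WT, against 29.9% of all genes tested, and for 15 in Esrp1-KO, against 27.0%. It held for 0 of the 14 cluster genes in either genotype. The ratio of the cluster sum between genotypes was 1.63 within replicates 1 and 4 and also 1.63 within replicates 2 and 3. The deviations of cluster genes from their group means went together over the 8 libraries, with a median Pearson r of 0.86 over 91 pairs (0.44 to 0.98), against 0.31 over the 465 pairs of other F-box genes. These correlations are descriptions, since the genes share libraries, totals and, in part, sequence. This split by replicate number was known from the data when it was chosen, and no label says what a number stands for.

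**Figure D4:**
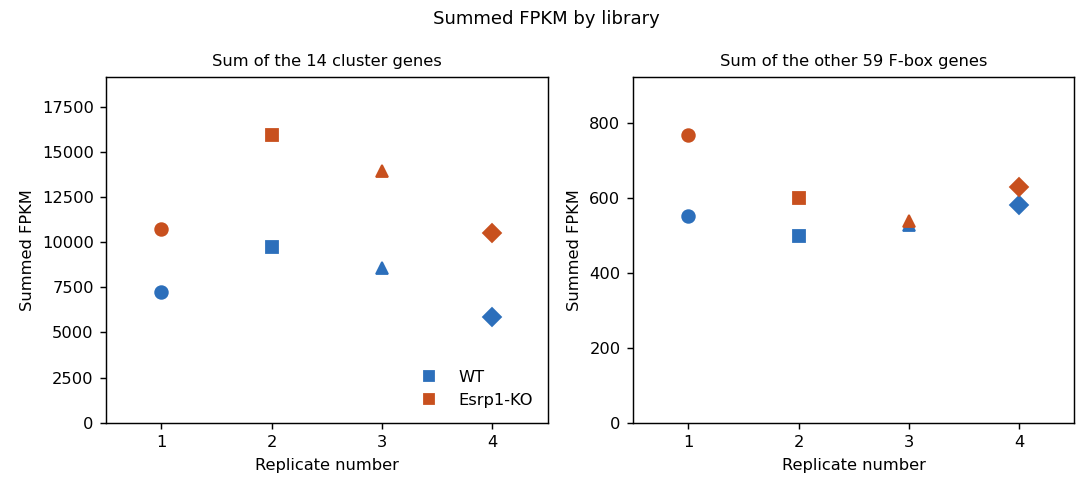
Summed FPKM of the 14 cluster genes (left) and of the other 59 F-box genes (right) by replicate number, with WT in blue and Esrp1-KO in orange. The cluster sum was highest in replicates 2 and 3 of both genotypes, with every Esrp1-KO library at 10496 FPKM or more, and the sum of the other genes did not follow that order.

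Outside the cluster, 59 F-box genes together had 538 ± 35 FPKM in WT and 633 ± 97 FPKM in Esrp1-KO (SD, n = 4 each). Of these, 31 reached the mean of at least 1 FPKM needed for a test, 5 of them were higher, 3 lower and 23 did not pass. The median log2 fold change of the 31 genes was -0.05, close to that of all genes. By subfamily, 2 of 9 Fbxl genes were higher and 0 lower, 3 of 19 Fbxo genes were higher and 3 lower, and 0 of 3 Fbxw genes passed in either direction. The 8 calls among 31 compare with 36.9% of all genes. Leaving out Esrp1-KO replicate 1 raised the lower calls from 3 to 6, and the share of all genes was not computed for that fit.

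Fbxl6, an F-box protein with leucine-rich repeats, had the largest fitted change of the 31. It had 73.8, 73.7, 96.4 and 102 FPKM in WT and 335, 184, 159 and 210 FPKM in Esrp1-KO libraries. The groups did not overlap, Esrp1-KO replicate 1 stood highest, and Fbxl6 rose by 1.31 on the log2 scale (SE 0.23, adjusted p = 0.00162). Fbxo7, known from an inherited form of parkinsonism, had 3.34, 2.85, 2.44 and 2.94 FPKM in WT and 8.31, 5.56, 5.02 and 4.91 FPKM in Esrp1-KO. Its groups did not overlap, with a log2 fold change of 0.82 (SE 0.17, adjusted p = 0.00401). Fbxo36 went from 1.34 ± 0.25 to 2.49 ± 0.47 FPKM and Fbxo25 from 4.73 ± 0.86 to 7.38 ± 0.97 FPKM (SD, n = 4 each), with log2 fold changes of 0.57 (adjusted p = 0.0102) and 0.55 (adjusted p = 0.0176). For both genes every Esrp1-KO library was above every WT library.

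Among the falls, Fbxo28 had 48.3 to 59.8 FPKM in the 4 WT libraries and 32.1, 31.8, 29.6 and 29.3 FPKM in the Esrp1-KO libraries. The groups were far apart for their spread, and Fbxo28 fell by 0.74 on the log2 scale (SE 0.11, adjusted p = 0.000898). Fbxo47, an F-box gene known from meiotic germ cells, had 3.05, 2.83, 2.42 and 3.31 FPKM in WT and 0.744, 0.984, 1.46 and 1.25 FPKM in Esrp1-KO. It fell by 0.89 on the log2 scale (SE 0.15, adjusted p = 0.00118), with no overlap. Fbxo22, whose product targets the histone demethylase KDM4A, went from 4.53 ± 1.18 to 2.74 ± 0.30 FPKM (SD, n = 4 each). Its log2 fold change was -0.54 (adjusted p = 0.0284), the call was lost in 9 of 25 alternatives, and 15.4% of its exon bases overlapped Nrg4 on the opposite strand.

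**Figure D5:**
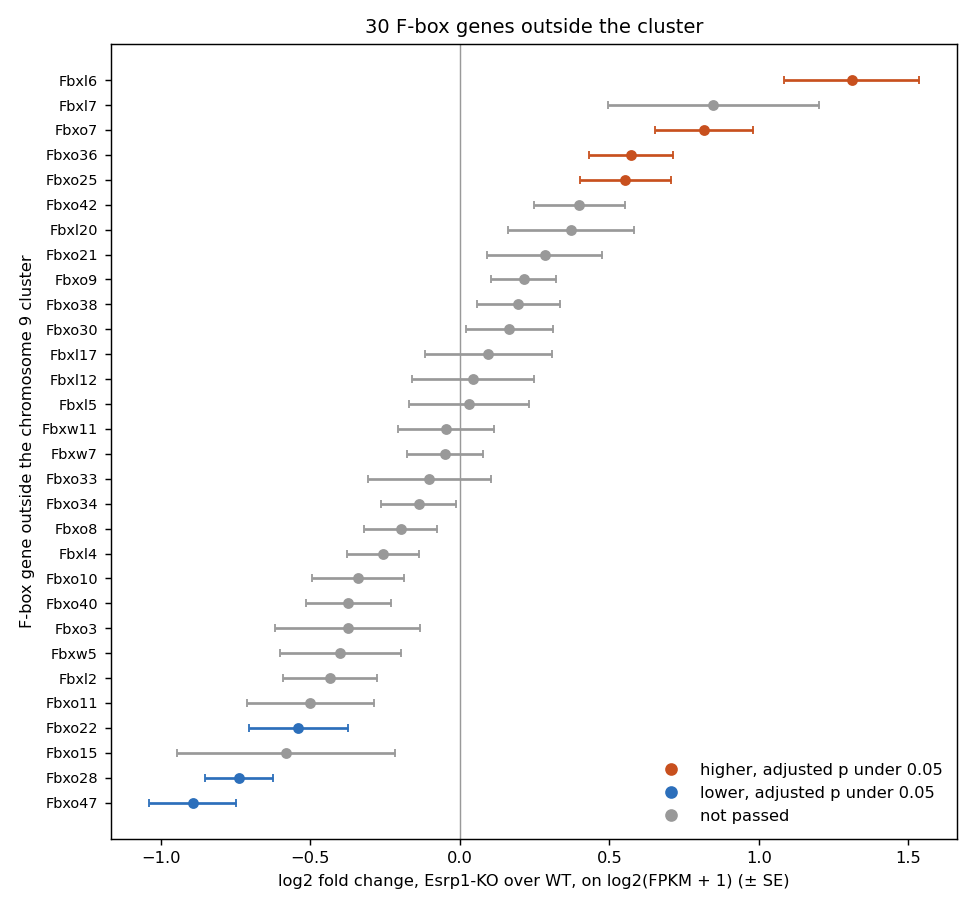
Log2 fold change of Esrp1-KO over WT on log2(FPKM + 1) ± SE (limma) for 30 of the 31 tested F-box genes outside the cluster, ordered by size. The 4 orange points are genes that rose (Fbxl6 at 1.31 is the highest), the 3 blue points are those that fell (Fbxo47 at -0.89 is the lowest), and grey points did not pass.

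The most abundant of the remaining genes did not pass. Fbxo8, which carries a SEC7 domain found in activators of ARF GTPases, had 112 ± 8 FPKM in WT and 97.6 ± 11.5 in Esrp1-KO (SD, n = 4 each, adjusted p = 0.236). Fbxo34 had 63.8 ± 2.4 and 58.3 ± 8.2 FPKM. Fbxo11, the receptor for BCL6, had 45.8, 47.1, 52.8 and 47.7 FPKM in WT and 22.3, 49.7, 38.3 and 30.7 FPKM in Esrp1-KO. Only Esrp1-KO replicate 2 reached the WT range (adjusted p = 0.0926), and without that library its adjusted p was 0.0174, within 0.0165 to 0.521 over alternatives. Fbxo33 had 18.8 ± 4.4 and 17.4 ± 3.7 FPKM, Fbxl20 had 16.5 ± 2.5 and 22.2 ± 7.3 FPKM, and Fbxl5, the iron-sensing receptor for IRP2, had 15.6 ± 2.5 and 16.2 ± 4.5 FPKM (SD, n = 4 each). The other 28 genes stayed under the mean of 1 FPKM and were not tested. Of these, Fbxo46, Fbxl19, Fbxw17, Fbxw4 and Fbxl14 reached 1 FPKM in at least 1 library, the highest value being 1.61.

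The parts of the ligase that F-box proteins join were read from a list of 34 gene symbols of SCF, neddylation and the COP9 signalosome. Of these symbols, 33 were found in the data and 28 were tested. Of the 28 tested, 5 were higher, 4 lower and 19 under neither call, where 13.9% of all genes tested were higher and 23.1% lower. Their median was 0.18 on the log2 scale. With the replicate block 9 were higher and 5 lower, where 17.2% and 25.3% of all genes were. The cullin Cul1 (416 ± 37 and 354 ± 34 FPKM, adjusted p = 0.148) and the linker Skp1a (540 ± 37 and 536 ± 49 FPKM, adjusted p = 0.939), named after their values were seen, did not pass. The 2 smallest p-values of the list belonged to enzymes of the NEDD8 cycle. Uba3, the catalytic subunit of the NEDD8-activating enzyme, had 22.5, 20.8, 17.0 and 23.4 FPKM in WT and 6.33, 5.21, 5.78 and 6.65 FPKM in Esrp1-KO libraries. It fell by 1.64 on the log2 scale (SE 0.13, adjusted p = 3.06e-05), with no overlap. Nae1, for the other subunit of that enzyme, was named after its values were seen and went the other way. Nae1 had 68.6 ± 4.1 FPKM in WT and 89.3 ± 5.3 in Esrp1-KO (SD, n = 4 each). Its log2 fold change was 0.38 (SE 0.11, limma, adjusted p = 0.0201). Senp8, the protease that matures NEDD8 and removes it from proteins, had 48.1, 46.5, 42.1 and 52.8 FPKM in WT and 17.9, 16.0, 16.9 and 18.3 FPKM in Esrp1-KO. It fell by 1.40 on the log2 scale (SE 0.11, adjusted p = 3.05e-05).

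Dcun1d1, a co-factor of cullin neddylation, went from 117 ± 6 to 86.3 ± 10.4 FPKM (log2 fold change -0.45, adjusted p = 0.016), a call lost after TMM scaling (adjusted p = 0.0514, within 0.00645 to 0.137 over alternatives). Of the 50-base stretches of Dcun1d1, 20.6% also occurred in Tes3-ps. Nedd8 itself had 22.5, 35.3, 21.2 and 20.1 FPKM in WT and 43.2, 55.4, 40.5 and 48.3 FPKM in Esrp1-KO. Its groups did not overlap, and it rose by 0.92 on the log2 scale (SE 0.19, adjusted p = 0.00407), with 14.6% of its exon bases overlapping the opposite-strand gene Gmpr2. Cops7a, a subunit of the COP9 signalosome, went from 6.40 ± 1.83 to 14.1 ± 4.2 FPKM (log2 fold change 1.03, adjusted p = 0.00535). Cdc34, a ubiquitin-conjugating enzyme of SCF ligases, went from 3.95 ± 0.76 to 6.04 ± 0.48 FPKM (log2 fold change 0.52, adjusted p = 0.0148; SD, n = 4 each). The call of Cdc34 was lost in 5 of 25 alternatives, among them the one without WT replicate 1 (limma, adjusted p = 0.0509, within 0.00702 to 0.144 over alternatives).

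Of 9 F-box proteins with other symbols, 8 were found in the data and 5 were tested. Of the 5 tested, 0 were higher and 1 was lower, with a median log2 fold change of 0.03. Over all genes tested, 13.9% were higher and 23.1% lower. Skp2, the receptor for the cyclin-dependent kinase inhibitor p27, had 4.49, 3.24, 3.09 and 4.03 FPKM in WT and 1.77, 0.897, 1.03 and 1.38 FPKM in Esrp1-KO libraries. It fell by 1.06 on the log2 scale (SE 0.16, adjusted p = 0.000852), with no overlap. Ccnf (cyclin F), Kdm2b, Btrc (the receptor for beta-catenin) and Fbh1 (a DNA helicase) did not pass, with adjusted p-values of 0.0943, 0.26, 0.596 and 0.938.

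Of 25 textbook substrates of SCF ligases, 16 were tested, and transcripts of 3 were higher and 2 lower, with a median log2 fold change of 0.09. Of all genes tested, 13.9% were higher and 23.1% lower. Rrm2, a subunit of ribonucleotide reductase, had 9.51, 9.36, 10.7 and 9.38 FPKM in WT and 16.9, 17.4, 16.0 and 23.5 FPKM in Esrp1-KO. It rose by 0.85 on the log2 scale (SE 0.14, adjusted p = 0.00128), with no overlap. Ccnd1 (cyclin D1) went from 0.491 ± 0.217 to 1.58 ± 0.53 FPKM and Cdc25b, a phosphatase that activates CDK1, from 2.14 ± 0.24 to 3.94 ± 1.15 FPKM (SD, n = 4 each), with adjusted p-values of 0.0075 and 0.0193. Ccnd1 reached the mean of 1 FPKM needed for testing only through the Esrp1-KO libraries, and it is counted among the 3. Without Esrp1-KO replicate 4 the adjusted p of Cdc25b was 0.0569, within 0.00787 to 0.188 over alternatives, and 23.4% of the exon bases of Ccnd1 overlapped another gene on the opposite strand. Ctnnb1 (beta-catenin) went from 50.3 ± 6.6 to 29.7 ± 5.9 FPKM and Ccne1 (cyclin E1) from 6.21 ± 2.42 to 2.40 ± 0.63 FPKM (SD, n = 4 each), with adjusted p-values of 0.00506 and 0.00592. Of the exon bases of Ctnnb1, 14.6% overlapped exons on the opposite strand (largest overlap with Ulk4). Cdkn1b, which encodes p27, went from 3.24 ± 0.57 to 2.33 ± 0.59 FPKM and did not pass (adjusted p = 0.114). These are transcript levels, and protein turnover was not measured.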

How the data were processed

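RNA of MII oocytes was profiled in 4 WT and 4 Esrp1-KO libraries, grouped by genotype label. Values are FPKM per gene as deposited by the authors, per the file headers, from reads on GRCm38, per the submitters' processing notes. Not given in the sources used here are the annotation, aligner and counting tool. FPKM times M21 exon length fell on whole reads, within 0.02 of a read, for 90.0% to 90.6% of values per library, which gave the implied totals and a voom fit as an alternative (2997 of 8007 genes past the threshold). No libraries held identical values. Intervals on reads were not computed, since PCR copies were not marked.

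The 8021 genes whose mean reached 1 FPKM entered limma 3.58.1 (R 4.3.3, trend on intensity) as log2(FPKM + 1). Genotype was the single term, tests were two-sided, and Benjamini-Hochberg adjustment ran over all of these genes, at 0.05. A log2 fold change on this scale understates that of low genes. The fit was tested on simulated data. Same-numbered libraries deviated together (correlation over genes 0.226 to 0.317 in all 4 pairs), although some differently numbered pairs did so as much or more (up to 0.402, for WT 4 with Esrp1-KO 1), and a fit with the replicate number as a block was also run; no label gives what a number shares. Members and gene lists were chosen with earlier results of these data known. Named are every cluster gene, every other F-box gene past the threshold (apart from 1 that is not reported here), the 6 most abundant that did not pass, up to 6 genes per list by p, untested members with at least 1 FPKM in a library, and Esrp1. Start regions are from RefSeq, and coding sequences and exon overlaps from GENCODE M21. Proteins were not analysed here.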

Additional observations from a re-analysis of the deposited data

Results flagged for a closer look

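In 100 groups of 4 libraries examined, 6 held a library that stood apart by Dixon's criterion (the gap to the nearest other library over the range of the group), and chance gives about 1 in 20. For Fbxw28, WT replicate 4 had 993 FPKM, below the 1260 to 1280 FPKM of the other WT libraries. For Fbxw13, Esrp1-KO replicate 1 had 22.85 FPKM, against 27.6 to 28.3. For Fbxo28, WT replicate 4 had 59.79 FPKM, above the other WT libraries, the lowest of which had 48.3 FPKM. For Fbxo25, Esrp1-KO replicate 3 had 5.919 FPKM, against 7.77 to 7.93. For Nedd8, WT replicate 2 had 35.27 FPKM, against 20.1 to 22.5. For Rrm2, WT replicate 3 had 10.69 FPKM, against 9.36 to 9.51.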

How the results depend on the processing

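The 27 genes past the threshold among those the naming rule gives kept their direction in every alternative run (25 or 26 alternatives per gene). Of these, Fbxw14, Fbxw28, Fbxl6, Fbxo28, Senp8, Uba3, Cops7a, Skp2, Rrm2, Ctnnb1, Ccne1 and Esrp1 also kept their call. The ratio of the cluster sum reached 1.771 for all 14 genes. The lowest value, 1.395, was for a smaller set, the 11 members with under 20% of their stretches shared. Counts moved with the setting, and the cause was not tested. Some settings leave fewer genes or libraries to the fit. A minimum mean of 5 FPKM leaves out Fbxo47, Fbxo22, Skp2 and Ccne1, among others, so their calls are absent there. Without a filter the members had 7 higher, the cluster 2 higher and the F-box genes with other symbols 2 lower. With a minimum mean of 5 FPKM the members and the other F-box genes each had 1 lower, the other F-box genes 3 higher, the SCF list 3 higher, the other-symbol list 0 lower and the substrates 1 higher and 1 lower. With a common total over nuclear genes the members and the other F-box genes each had 5 lower and the SCF list 3 higher. With the replicate block the SCF list had 9 higher, where 17.2% of all genes tested were. Apart from Fbxw25, Fbxw21, Fbxw16 and members of the lists, the block changed no call named in the text. Replicates 1 and 4 alone gave 5 lower for the members and for the other F-box genes, 3 higher for the latter and 2 higher for the SCF list. Of all genes tested, 8.43% were higher and 16.8% lower in these replicates. Replicates 2 and 3 alone gave 6 higher and 1 lower for the members, 2 higher and 1 lower for the other F-box genes, and 2 higher and 2 lower for the SCF list. There, 7.28% of all genes tested were higher and 11.3% lower. With sample quality weights the members and the other F-box genes each had 9 lower. TMM scaling together with the replicate block, added after seeing the data, gave 17 members higher, 10 of the cluster, 10 of the SCF list and 6 substrates. Leaving out single libraries gave 7 to 12 members higher; with those runs that leave out a replicate number in both groups under the block (added after seeing the data) the counts were up to 13 members higher and 2 to 6 lower, 2 to 8 cluster genes higher, 4 to 6 other F-box genes higher and 2 to 6 lower, 3 to 8 SCF genes higher and 3 to 6 lower, 1 to 2 other-symbol genes lower, and 2 to 5 substrates higher. Signs turned only for genes that did not pass. For Fbxw27 the log2 fold change was -0.041 after quantile normalization, -0.051 with the nuclear total, -0.13 in replicates 1 and 4, and -0.11 to 0.16 without single libraries. Fbxw26 ranged from -0.16 to 0.30 without single libraries, and Fbxw13 was -0.019 in replicates 2 and 3. Fbxo33 ranged from -0.24 to 0.055 without single libraries and was 0.12 without replicate 3 of both groups. Fbxl5 was -0.030 with the nuclear total, -0.20 in replicates 2 and 3, -0.00023 with quality weights, -0.10 to 0.14 without single libraries, and -0.055 and -0.035 without replicates 1 and 4 of both groups. Fbh1 was -0.031 with the nuclear total, -0.24 with quality weights, -0.21 to 0.17 without single libraries, and -0.12 and -0.042 without replicates 1 and 2 of both groups. Skp1a was 0.074 with TMM, with or without the block, 0.091 with median-ratio scaling, 0.15 after quantile normalization, 0.039 in replicates 2 and 3, 0.031 with quality weights, -0.075 to 0.024 without single libraries, and 0.043 and 0.032 without replicates 1 and 2 of both groups. Where the omission of 1 library leaves 3 in a group, calls may also be lost to the smaller number, which was not tested. The 28 members under the filter were not tested.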
